A study of Homo sapiens with 6 samples.

Results

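The genes of cholesterol and fatty acid synthesis were followed through 6 libraries of Hep G2, an established human liver cancer cell line with hepatocyte features. The group was defined by gene symbol and comprised 37 of the 21863 symbols in the expression list, in 4 roles: 15 genes of mevalonate and sterol synthesis, 6 of SREBP control and sterol transfer, 13 of fatty acid synthesis and modification, and 3 of fatty acid activation. Cells were transfected with a mimic of *miR-195* or of *miR-497* at 5 nM and labelled 24 h, or were not transfected (NT) and labelled 0 h. From each of the 3 conditions, 1 library was made of total RNA and 1 of the RNA recovered with an antibody to Ago2 (Ago2-IP), the Argonaute protein that carries miRNAs. None of the 6 libraries came from cells transfected with a control RNA, so the mimic, the transfection itself and the time in culture cannot be told apart. With 1 library per condition no difference has a replicate check, and no p-value is given. Levels are in RPKM, the reads of a gene divided by its transcript length and by the mapped reads of the library. Changes are given as the ratio to NT divided by the ratio of the median gene, and a gene is called higher or lower when this relative ratio is at least 1.5-fold. Of the 37 genes, 34 had an RPKM above 0 in all 6 libraries and a mean of at least 1, the filter that 10777 genes passed, and these 34 are counted below.

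Cholesterol is made from acetyl-CoA through mevalonate, isoprenoid diphosphates, squalene and lanosterol, and fatty acids are made from the same precursor by carboxylation, chain synthesis, desaturation and elongation. The genes of both routes are classical targets of the SREBP transcription factors, encoded by *SREBF1* and *SREBF2*. These are made as membrane-bound precursors, are escorted from the endoplasmic reticulum by the product of *SCAP*, and are held there by the products of *INSIG1* and *INSIG2* when sterols are plentiful. Hepatocytes are a main site of both routes in the body.

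The mature miRNAs are shown because the mimics share the stretch that pairs with target mRNAs. The seed, bases 2 to 8, stands in capitals, and the sequences and positions are those of RefSeq on GRCh38.p14, both on the minus strand, at chr17:7017667-7017687 for *miR-195* and chr17:7017979-7017999 for *miR-497*.
hsa-miR-195-5p: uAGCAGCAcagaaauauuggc
hsa-miR-497-5p: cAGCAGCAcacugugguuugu
Both seeds read AGCAGCA, so the DNA word paired by either is TGCTGCT. This word was searched on the sense strand of the 3′UTRs annotated by GENCODE release 44 on GRCh37 (hg19). It occurred in 11 of the 37 genes (*MVK*, *FDFT1*, *ACSS2*, *ACACA*, *ACACB*, *FASN*, *ELOVL6*, *GPAM*, *ACSL1*, *ACSL3* and *ACSL4*). The sites of the genes whose values are set against this word below are printed with the word in capitals, 5′ to 3′ on the strand of the gene. They are 1 site of *MVK* (chr12:110035272-110035278, plus strand), both sites of *FASN* (chr17:80036250-80036256 and chr17:80036333-80036339, minus strand), and the 3 sites followed by an A, in *ACSL3* (chr2:223808983-223808989, plus strand), *ACSL4* (chrX:108885279-108885285, minus strand) and *ELOVL6* (chr4:110967210-110967216, minus strand).
MVK: acaactctaggcTGCTGCTgcggagggaga
FASN, the site nearer the end of the 3′UTR: atttggtaaaaaTGCTGCTctcagcctccc
FASN, the other site: aatgattcaaatTGCTGCTtggattttgaa
ACSL3: aacttacttgttTGCTGCTaaaatactcaa
ACSL4: cttaaggttgggTGCTGCTaattctttgca
ELOVL6: caggaggttgctTGCTGCTatcttgaaaac

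The libraries differed in ways that touch every gene. The RPKM steps implied 24.7 to 31 M mapped reads in total RNA and 10.6 to 16.8 M in Ago2-IP. The median gene's ratio to NT was 0.995-fold and 1.03-fold in total RNA and 1.42-fold and 0.841-fold in Ago2-IP, for *miR-195* and *miR-497* respectively. Across all genes the change also followed the GC content of the transcript, with Spearman coefficients of 0.29 (*miR-195*) and 0.77 (*miR-497*) in total RNA over 10325 genes that share the same libraries, and of 0.57 and -0.27 in Ago2-IP. Of 10 hepatocyte markers 9 passed the filter, from *AFP* at 4884 RPKM in NT total RNA downwards, while *TTR* was at 1.52 RPKM. Of 10 markers of other cell types only *CD68* passed, at 10.5 RPKM, and *PTPRC*, *COL1A2*, *CD3E* and *DCN* were listed at 0 in all 6 libraries. In such bulk RNA, fewer cells expressing a gene and less RNA per cell cannot be told apart.

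In untransfected cells the lipid synthesis genes were among the abundant transcripts. Their summed level in NT total RNA was 2150 RPKM, and 11 of the 34 lay in the top 10% of the genes tested. The highest was *SCD*, the desaturase that makes oleate, at 368 RPKM, followed by *ACAT2*, the thiolase that joins 2 acetyl-CoA units, at 226 RPKM. *FDFT1*, squalene synthase, stood at 158 RPKM and *IDI1*, the isomerase of the isoprenoid building blocks, at 151 RPKM. The regulators were less abundant, with *SREBF2* at 23.7 RPKM and *SREBF1* at 7.02 RPKM. With the mimics the summed level in total RNA was 2905 RPKM (*miR-195*) and 2918 RPKM (*miR-497*). The sum of the 15 mevalonate and sterol genes was 1028 RPKM in NT, 1478 (*miR-195*) and 1459 (*miR-497*).

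**Figure D1:**
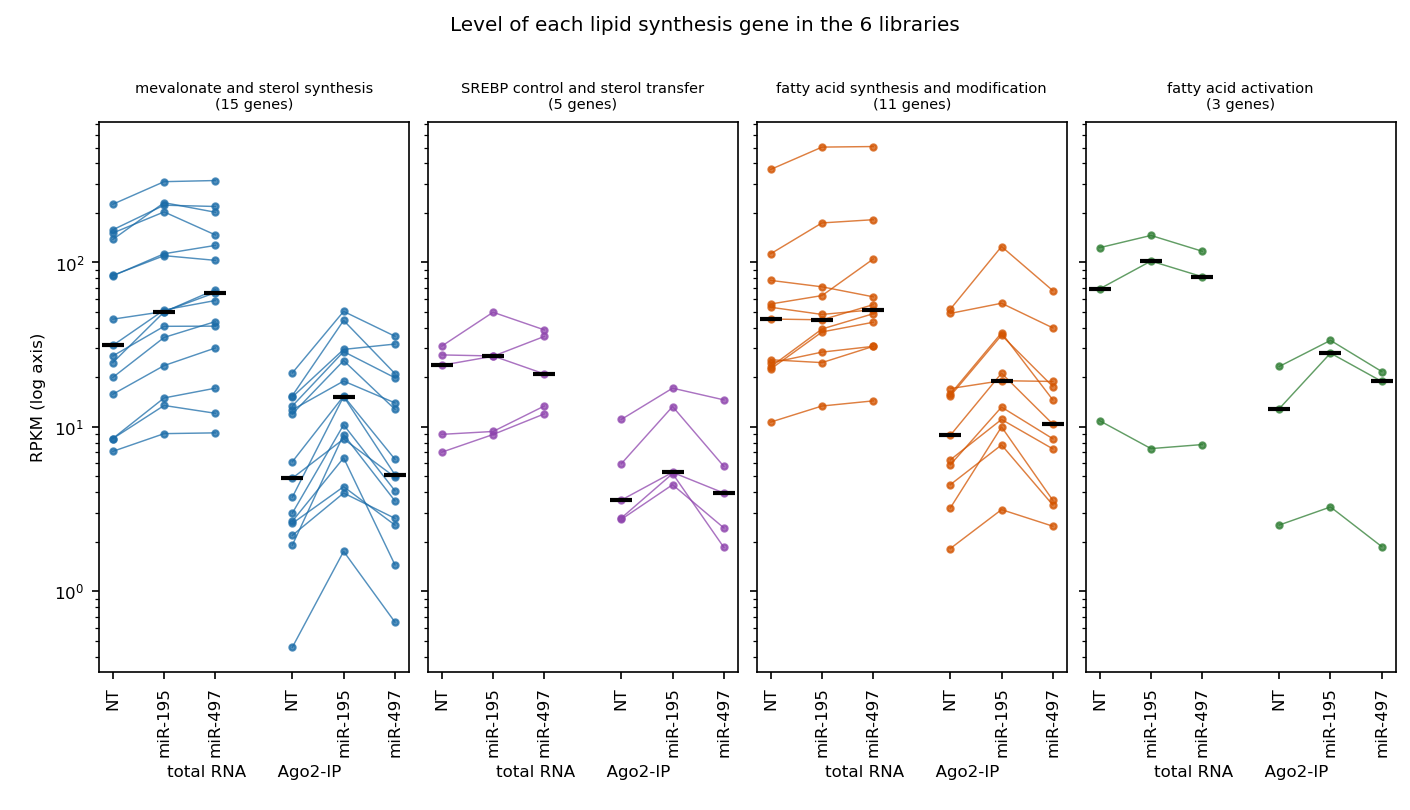
RPKM on a log axis of each of the 34 genes in the 6 libraries, by role, with total RNA on the left and Ago2-IP on the right of each panel (NT, not transfected, and the mimics; 1 library each). Lines join the values of 1 gene and black bars are medians over genes; all 15 sterol genes sit higher in total RNA with *miR-195* than in NT.

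Genes of sterol and fatty acid synthesis stood higher in total RNA with either mimic. With *miR-195*, 11 of 34 (32.4%) were called higher, against 6.3% of all genes tested, and 0 were called lower, against 6.26%. With *miR-497*, 10 of 34 (29.4%) were called higher, against 9.9% of all genes, and 0 lower, against 3.92%. The median relative log2 ratio was 0.44 (*miR-195*) and 0.45 (*miR-497*), where the median over all genes is 0 by construction, and 28 of 34 lay above the median gene in each. Both comparisons use the same NT library, so they are not independent of each other. For 28 of the 34 genes read numbers could be inferred, and the 95% counting interval of the ratio, which covers counting error only, lay above 0 for 22 and below 0 for 2 with *miR-195*. With *miR-497* it lay above 0 for 24 and below 0 for 4.

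**Figure D2:**
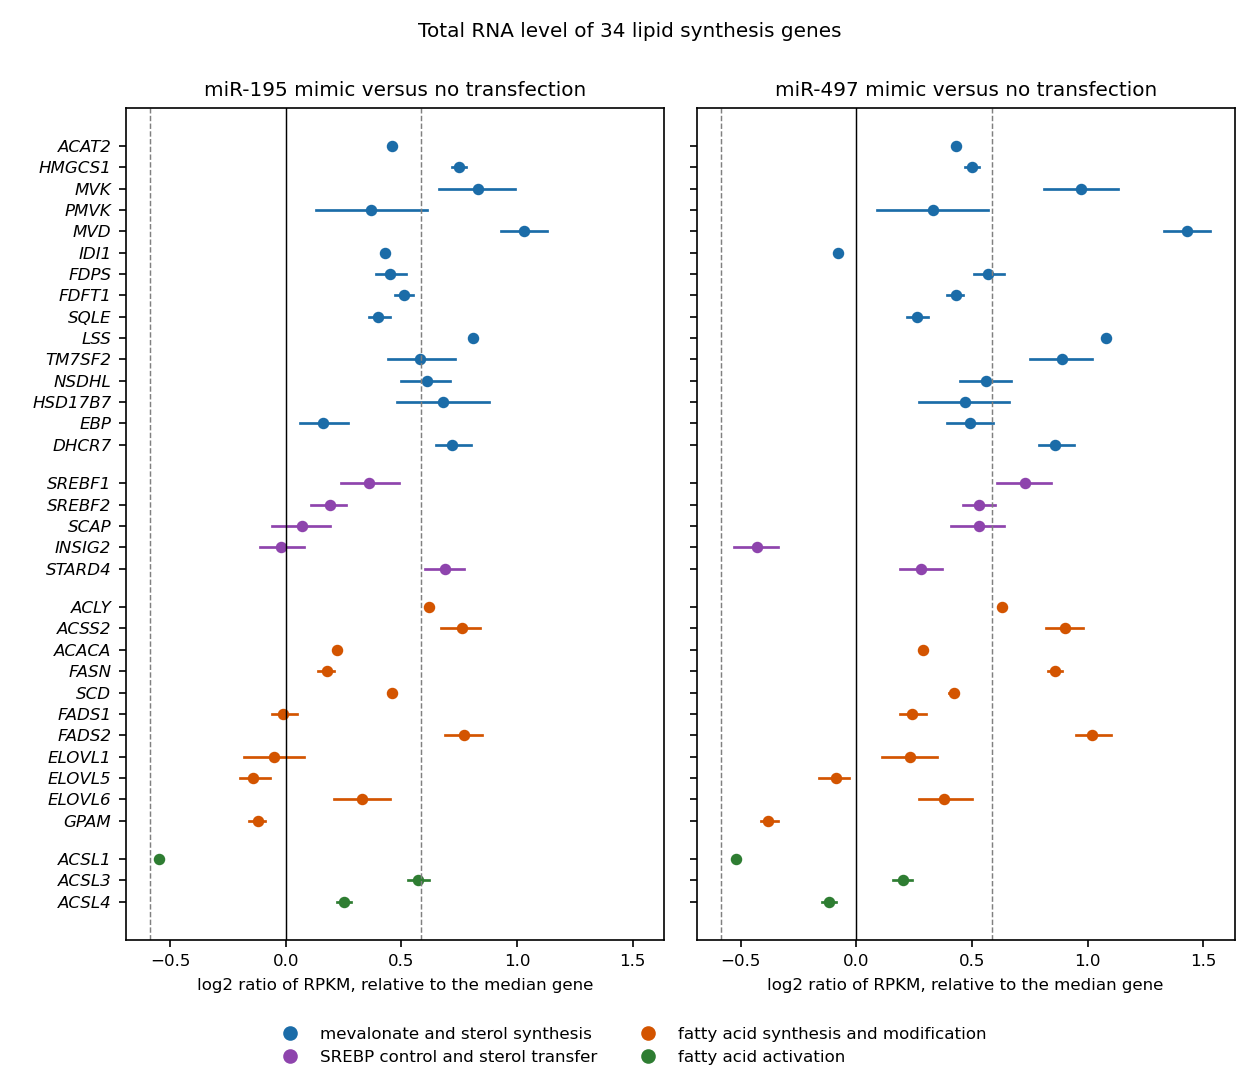
Log2 ratio of total RNA RPKM to NT, relative to the median gene, for 34 genes by role, with *miR-195* on the left and *miR-497* on the right. Points are single library pairs, bars are 95% counting intervals where reads were inferred, and dashed lines mark 1.5-fold; 11 genes (*miR-195*) and 10 genes (*miR-497*) lie past the upper line, and none past the lower.

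The sterol pathway was the most uniform of the 4 roles in direction, with the largest share of genes above the median gene for each mimic. The size of the change was not the most uniform there. With *miR-195*, all 15 genes lay above the median gene and the median log2 ratio was 0.58. Of the 15, 7 (46.7%) were called higher, against 6.3% of all genes. With *miR-497*, 5 (33.3%) were called higher, against 9.9%, the median was 0.50 and 14 of 15 lay above the median gene. The exception was *IDI1*, at a log2 ratio of -0.08, which was 0.22 when centred on genes of like GC content, as described below.

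The early steps, from acetyl-CoA to the isoprenoid diphosphates, held the gene with the highest ratio of the group. *MVD* (chr16:88718343-88729569 on GRCh37), which decarboxylates mevalonate diphosphate, had a total RNA level of 24.6 RPKM in NT, 50 (*miR-195*) and 68.4 (*miR-497*), and an Ago2-IP level of 3.74, 15.3 and 5.12 RPKM. Its relative ratio in total RNA was 2.04-fold with *miR-195* (log2 1.03, counting interval 0.93 to 1.13) and 2.70-fold with *miR-497* (log2 1.43, 1.33 to 1.53). These ratios exceeded those of 98.6% and 99.6% of genes. *HMGCS1*, the cytosolic synthase that feeds mevalonate production, was at 138, 231 and 202 RPKM in total RNA (NT, *miR-195*, *miR-497*) and at 21.3, 50.4 and 35.6 RPKM in Ago2-IP. It was called higher with *miR-195* (1.68-fold) and stayed under the threshold with *miR-497* (1.41-fold). Within GC bins, described below, *HMGCS1* was at log2 0.87 (*miR-195*) and 0.78 (*miR-497*), beside 0.85 and 0.78 for *MVD*, so *MVD* did not stand apart there. *MVK* (chr12:110011060-110035930), mevalonate kinase, was at 8.50, 15.0 and 17.2 RPKM in total RNA and at 2.67, 6.48 and 1.45 RPKM in Ago2-IP. Its total RNA ratio was 1.78-fold (log2 0.83, 0.66 to 0.99) and 1.96-fold (log2 0.97, 0.81 to 1.13), while its Ago2-IP level with *miR-497* was the lowest of the 3. *PMVK*, the next kinase, was at 7.10, 9.10 and 9.20 RPKM in total RNA and at 0.457, 1.75 and 0.650 RPKM in Ago2-IP, the latter from 10, 31 and 9 reads. *IDI1* was at 151, 203 and 147 RPKM in total RNA and at 15.2, 29.6 and 31.9 RPKM in Ago2-IP. It was thus the only sterol gene with a lower RPKM in total RNA with *miR-497* than in NT. *ACAT2* (1.38-fold and 1.35-fold) and the farnesyl diphosphate synthase *FDPS* (1.37-fold and 1.49-fold) lay above the median gene without passing the threshold. *FDPS* and *HSD17B7* have close pseudogene copies, and *ACAT2* overlaps a neighbour on the other strand, so their reads may be shared with those loci.

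The steps from squalene to cholesterol showed the same direction at every gene. *LSS*, which closes the sterol rings to lanosterol, was at 20, 35.0 and 43.7 RPKM in total RNA (NT, *miR-195*, *miR-497*) and at 6.14, 15.4 and 6.36 RPKM in Ago2-IP. Its total RNA ratio was 1.75-fold and 2.11-fold. *DHCR7*, the reductase of the last step, was at 31.3, 51.4 and 58.7 RPKM in total RNA and at 2.99, 10.3 and 4.09 RPKM in Ago2-IP. The ratio in total RNA was 1.65-fold (log2 0.72, 0.65 to 0.80) and 1.82-fold (log2 0.86, 0.79 to 0.94). *TM7SF2*, a sterol reductase acting after lanosterol, was at 15.8, 23.6 and 30.2 RPKM in total RNA and at 1.91, 8.98 and 3.55 RPKM in Ago2-IP. It was called higher with *miR-497* (1.85-fold) and lay just under the threshold with *miR-195* (log2 0.58). *NSDHL* and *HSD17B7* act in the removal of the methyl groups at carbon 4 of the sterol ring. In total RNA *NSDHL* was at 27.0, 40.9 and 41.0 RPKM and in Ago2-IP at 2.59, 4.33 and 2.53 RPKM. *HSD17B7* was at 8.49, 13.5 and 12.1 RPKM in total RNA and at 2.19, 3.96 and 2.78 RPKM in Ago2-IP. Both were called higher with *miR-195* (1.52-fold and 1.60-fold) and not with *miR-497* (1.47-fold and 1.38-fold). *FDFT1* (1.42-fold and 1.34-fold), the squalene epoxidase *SQLE* (1.32-fold and 1.20-fold) and the sterol isomerase *EBP* (1.12-fold and 1.40-fold) were above the median gene and under the threshold.

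The 5 measured genes of SREBP control and sterol transfer had a median log2 ratio of 0.19 with *miR-195* and of 0.53 with *miR-497*, and 1 of the 5 was called higher in each, against the 6.3% and 9.9% of all genes given above. Within GC bins these medians were 0.09 and 0.14. *SREBF1* was at 7.02, 8.99 and 12 RPKM in total RNA (NT, *miR-195*, *miR-497*) and at 2.74, 4.45 and 2.43 RPKM in Ago2-IP. It was called higher with *miR-497* (1.65-fold, log2 0.73, 0.61 to 0.84) and not with *miR-195* (1.29-fold). *SREBF2*, the main regulator of the sterol genes, was at 23.7, 26.9 and 35.5 RPKM in total RNA and at 5.97, 13.3 and 5.75 RPKM in Ago2-IP. The ratio was 1.14-fold and 1.45-fold, under the threshold with each mimic. *SCAP* was at 9.01, 9.38 and 13.4 RPKM in total RNA and at 2.79, 5.20 and 1.85 RPKM in Ago2-IP, a ratio in total RNA of 1.05-fold and 1.44-fold. *INSIG2* lay below the median gene with *miR-497*, at -0.43 on the log2 scale and -0.11 within GC bins. Its total RNA level was 27.4, 27.0 and 21.0 RPKM (0.989-fold and 0.740-fold), and its Ago2-IP level 3.59, 5.29 and 3.96 RPKM. *INSIG1*, itself a classical SREBP target, was listed at 0 in all 3 total RNA libraries and in NT Ago2-IP. It was at 0.0954 and 0.0305 RPKM in Ago2-IP with *miR-195* and *miR-497*, so no ratio was formed. The listed 0 may be a failed estimate and is not read here as absence of the transcript. *STARD4*, a sterol transfer protein, was at 31, 49.8 and 38.9 RPKM in total RNA and at 11.1, 17.2 and 14.6 RPKM in Ago2-IP. It was called higher with *miR-195* (1.61-fold) and not with *miR-497* (1.21-fold).

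Among the fatty acid genes *FADS2* had the highest ratio with each mimic, followed by *ACSS2*, whose counting intervals overlap those of *FADS2*. Of 11 genes, 3 (27.3%) were called higher with *miR-195* (median log2 0.22), against 6.3% of all genes. With *miR-497* 4 (36.4%) were called higher (median log2 0.38), against 9.9%. Within GC bins, described below, *ACLY* and *FASN* lost the *miR-497* call and *ELOVL6* gained it. *ACSS2* (log2 0.69 with *miR-195* and 0.72 with *miR-497*) then stood above *FADS2* (0.62 and 0.63). *ACLY*, which splits citrate into acetyl-CoA, was at 113, 174 and 182 RPKM in total RNA (NT, *miR-195*, *miR-497*) and at 15.4, 36.1 and 17.6 RPKM in Ago2-IP. *ACSS2*, which makes acetyl-CoA from acetate, was at 22.5, 37.8 and 43.3 RPKM in total RNA and at 5.88, 13.2 and 8.47 RPKM in Ago2-IP. Their ratios in total RNA were 1.54-fold and 1.55-fold for *ACLY*, and 1.69-fold and 1.87-fold for *ACSS2*. *FADS2*, a desaturase of polyunsaturated fatty acids, was at 23.2, 39.4 and 48.8 RPKM in total RNA and at 3.21, 10.0 and 3.58 RPKM in Ago2-IP. It was called higher with either mimic (1.71-fold and 2.03-fold). Its neighbour *FADS1*, annotated within the span of *FADS2* on chromosome 11, was not (0.994-fold and 1.18-fold), and reads in the shared span may be credited to either gene. *FASN* (chr17:80036214-80056170), the fatty acid synthase, was at 55.9, 62.9 and 105 RPKM in total RNA and at 15.8, 37.3 and 14.6 RPKM in Ago2-IP. The *FASN* ratio in total RNA was 1.13-fold with *miR-195* (log2 0.18, 0.14 to 0.21) and 1.82-fold with *miR-497* (log2 0.86, 0.83 to 0.89).

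The remaining fatty acid genes stayed between the thresholds. *SCD* was 1.37-fold and 1.33-fold relative to the median gene, *ELOVL6*, an elongase of saturated chains, 1.26-fold and 1.31-fold, and the acetyl-CoA carboxylase *ACACA* 1.17-fold and 1.22-fold. *ELOVL1* (0.967-fold and 1.17-fold) and *ELOVL5* (0.910-fold and 0.936-fold), elongases of very long and of polyunsaturated chains, lay near the median gene. *GPAM*, which starts glycerolipid assembly, lay below it (0.919-fold and 0.769-fold). Of the 3 acyl-CoA synthetases, which activate free fatty acids, *ACSL3* lay above the median gene (1.49-fold and 1.15-fold), *ACSL4* on either side (1.19-fold and 0.920-fold) and *ACSL1* below it (0.682-fold and 0.696-fold). *ACSL1* had the lowest ratio of the 34 genes with each mimic. Of the fatty acid genes outside the filter, *ACACB*, the mitochondrial carboxylase, was at 1.10, 1.0 and 1.24 RPKM in total RNA and at 0.707, 0.937 and 0.619 RPKM in Ago2-IP. The malic enzyme *ME1* was listed at 0 in every library but *miR-195* Ago2-IP, where it was at 0.0209 RPKM. As for *INSIG1*, the listed 0 is not read as absence.

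GC content moved with these ratios, and some calls depended on it. The 34 genes ranged from 34.4% to 65.5% GC with a median of 49.5%, against 47.8% over all genes, but the genes called higher had a median of 53.8% (*miR-195*) and 59.5% (*miR-497*). Over all genes the median log2 ratio with *miR-497* was -0.29 in the 20% of genes lowest in GC and 0.51 in the 20% highest. Each ratio was therefore also centred on the median of genes of like GC, in 20 bins, an alternative chosen after the data were seen. On that scale 11 of 34 were called higher with *miR-195*, against 5.06% of all genes, and 7 of 34 (20.6%) with *miR-497*, against 2.25%. The medians were 0.42 and 0.34, and all 15 sterol genes lay above 0 with *miR-195*. With *miR-497* 14 of 15 did, where *PMVK* (-0.07) lay below 0 and *IDI1* (0.22) above it, the reverse of their signs without this centring. With *miR-497* the genes past 1.5-fold were then *HMGCS1*, *MVD*, *LSS*, *STARD4*, *ACSS2*, *FADS2* and *ELOVL6*. The ratio of *MVD* was 0.78 (log2) in place of 1.43. That of *FASN* was 0.21 in place of 0.86 and that of *SREBF1* 0.19 in place of 0.73, and both lost the call. *MVK* (0.53), *TM7SF2* (0.35), *DHCR7* (0.46) and *ACLY* (0.52) also fell under the threshold with *miR-497*, as did *DHCR7* (0.57) with *miR-195*, where *ACSL3* (0.68) passed it.

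**Figure D3:**
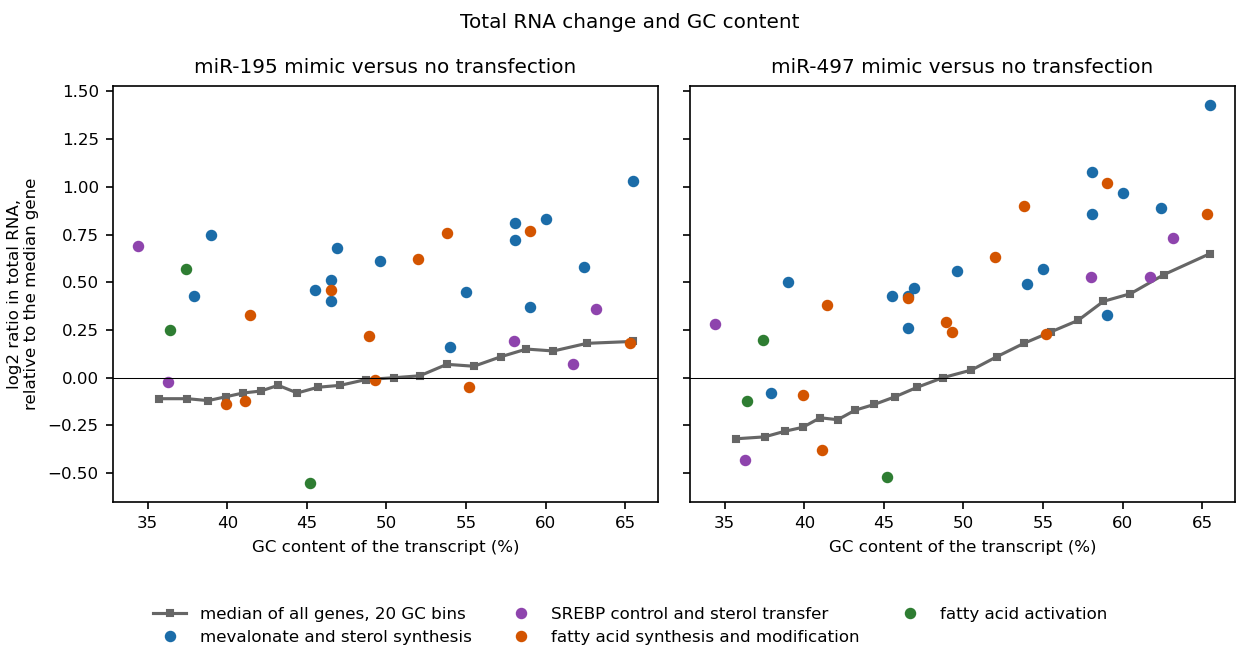
Log2 ratio of total RNA to NT relative to the median gene against the GC content of the transcript, for 34 genes by role and as the median of all genes in 20 GC bins (grey line), with *miR-195* on the left and *miR-497* on the right. The grey line climbs with GC, most with *miR-497*, and 28 of the 34 genes lie above their bin's median there and 27 with *miR-195*.

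The mimics were also compared with each other in total RNA, as the difference of the 2 relative log2 ratios. The NT value of each gene cancels in this difference. The NT library still enters through the filter and the centring on the median gene. Only *FASN* was at least 1.5-fold apart, higher with *miR-497* (log2 difference 0.68, counting interval 0.66 to 0.71), where 4.51% of all genes were that much higher with *miR-497* and 2.13% with *miR-195*. Within GC bins the *FASN* difference was 0.23. At the other end *IDI1* was higher with *miR-195* (log2 difference -0.52, *miR-497* minus *miR-195*; -0.33 within GC bins). Without centring on GC, the remaining 32 genes of the 34 lay between *IDI1* and *FASN*.

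The Ago2-IP fraction was examined next, since a transcript held by Ago2 more often with a mimic would rise there relative to its total level. In NT cells the sterol genes were poor in Ago2-IP relative to the median gene. Of the 34 genes, 20 were called lower in Ago2-IP than in total RNA, against 29.5% of all genes, and 2 higher, against 29.3%. The 2 were *ACACA* (2.52-fold) and *GPAM* (2.28-fold), and the lowest were *PMVK* (0.233-fold) and *ACAT2* (0.248-fold). The median over the 15 sterol genes was -1.19 on the log2 scale, over the 11 fatty acid genes -0.70, and over the 5 genes of SREBP control and sterol transfer 0.17. In the same comparison, 16 of 23 genes of fatty acid oxidation (69.6%, median -0.93) and 7 of 9 hepatocyte markers (77.8%, median -1.63) were called lower.

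With the mimics the lipid synthesis genes stood higher in Ago2-IP as well. With *miR-195*, 17 of 34 (50%) were called higher in Ago2-IP, against 18.4% of all genes, and 0 lower, against 15.1%. With *miR-497*, 14 of 34 (41.2%) were called higher, against 6.24%, and 1 lower, against 7.59%, which was *MVK* (0.646-fold, from 93 reads in NT and 32 with the mimic). The *miR-497* count of 14 was 7 with 1 RPKM added to every value, against 1.87% of all genes, and 3 without centring, against 2.69%. Centred within GC bins, 13 of 34 (38.2%) were called higher in each, against 12.5% (*miR-195*) and 5.66% (*miR-497*) of all genes. The median log2 ratio in Ago2-IP was 0.59 (*miR-195*) and 0.43 (*miR-497*), beside 0.44 and 0.45 in total RNA. With *miR-195*, other lists were called higher in Ago2-IP too, with 7 of 23 genes of fatty acid oxidation (30.4%) and 4 of 9 hepatocyte markers (44.4%). With *miR-497* these counts were 1 of 23 and 1 of 9. The highest ratios were those of *TM7SF2* (3.32-fold), *MVD* (2.90-fold) and *PMVK* (2.71-fold) with *miR-195*, and of *IDI1* (2.50-fold), *TM7SF2* (2.21-fold) and *HMGCS1* (1.99-fold) with *miR-497*.

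**Figure D4:**
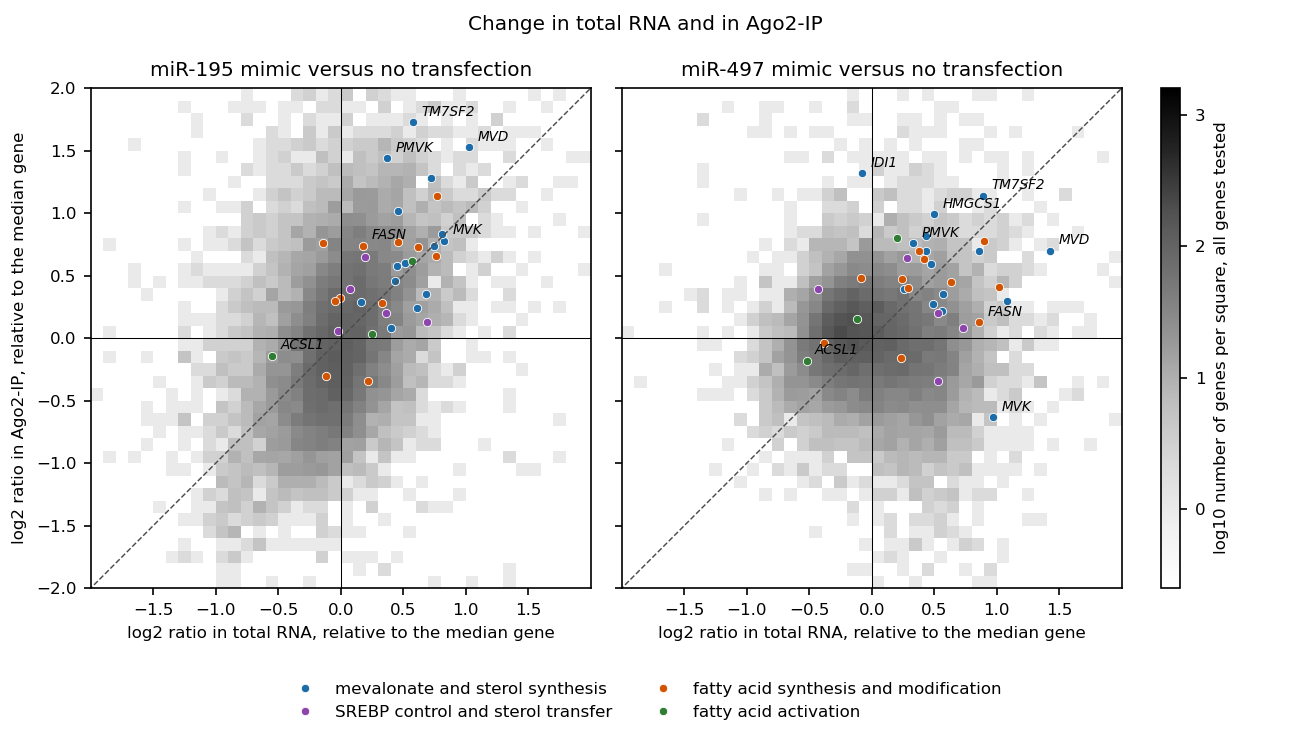
Log2 ratio to NT in Ago2-IP (vertical) against that in total RNA (horizontal), each relative to the median gene, for 34 genes coloured by role over the density of all 10777 genes (grey squares, log10 number of genes), with *miR-195* on the left and *miR-497* on the right. Most of the coloured points lie in the upper right quadrant of each panel, with *MVK* (-0.63 in Ago2-IP) and *IDI1* (1.32) apart with *miR-497*; the dashed line marks equal ratios.

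The fold enrichment score relates the fractions to each other. It is the ratio of Ago2-IP to total RNA after transfection, divided by that in NT, and it is given here relative to the median gene. With *miR-195*, 3 of 34 (8.82%) had a score at least 1.5-fold above the median gene, against 16.0% of all genes, and 0 lay as far below, against 12.1%. With *miR-497*, 2 of 34 (5.88%) lay above, against 8.78%, and 7 (20.6%) below, against 18.3%. The median log2 scores were 0.11 and 0.10. These shares lay near or under those of all genes.

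The 3 high scores with *miR-195* were those of *TM7SF2* (2.23-fold, log2 1.16, counting interval 0.69 to 1.63), *PMVK* (2.12-fold, log2 1.08, 0.03 to 2.14) and *ELOVL5* (1.87-fold, log2 0.91, 0.73 to 1.08). The *PMVK* score rests on 10 Ago2-IP reads in NT, and with 1 RPKM added to every value it was 0.24 (log2). With *miR-497* the high scores were those of *IDI1* (2.60-fold) and *INSIG2* (1.75-fold). The low ones were those of *MVK* (0.325-fold, log2 -1.62, -2.22 to -1.02), *SCAP* (0.538-fold), *LSS* (0.574-fold), *FASN* (0.594-fold), *MVD* (0.595-fold), *SREBF1* (0.628-fold) and *FADS2* (0.641-fold). The score followed GC content over all genes, with a Spearman coefficient of -0.72 with *miR-497* and 0.44 with *miR-195*. Centred within GC bins, *MVK* (log2 -1.02) was the only low score left with *miR-497*, 1 of 34 against 7.58% of all genes, and *IDI1* (1.0), *TM7SF2* (1.0) and *PMVK* (0.92) were high, 3 of 34 against 4.77%. On that scale *FASN* (0.21), *MVD* (0.21) and *SREBF1* (0.10) had scores above 0. With *miR-195*, *ELOVL5* (1.16), *TM7SF2* (0.81), *PMVK* (0.79) and *ACAT2* (0.67) were high on that scale, 4 of 34 against 13.0%, and 0 were low, against 8.21%.

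**Figure D5:**
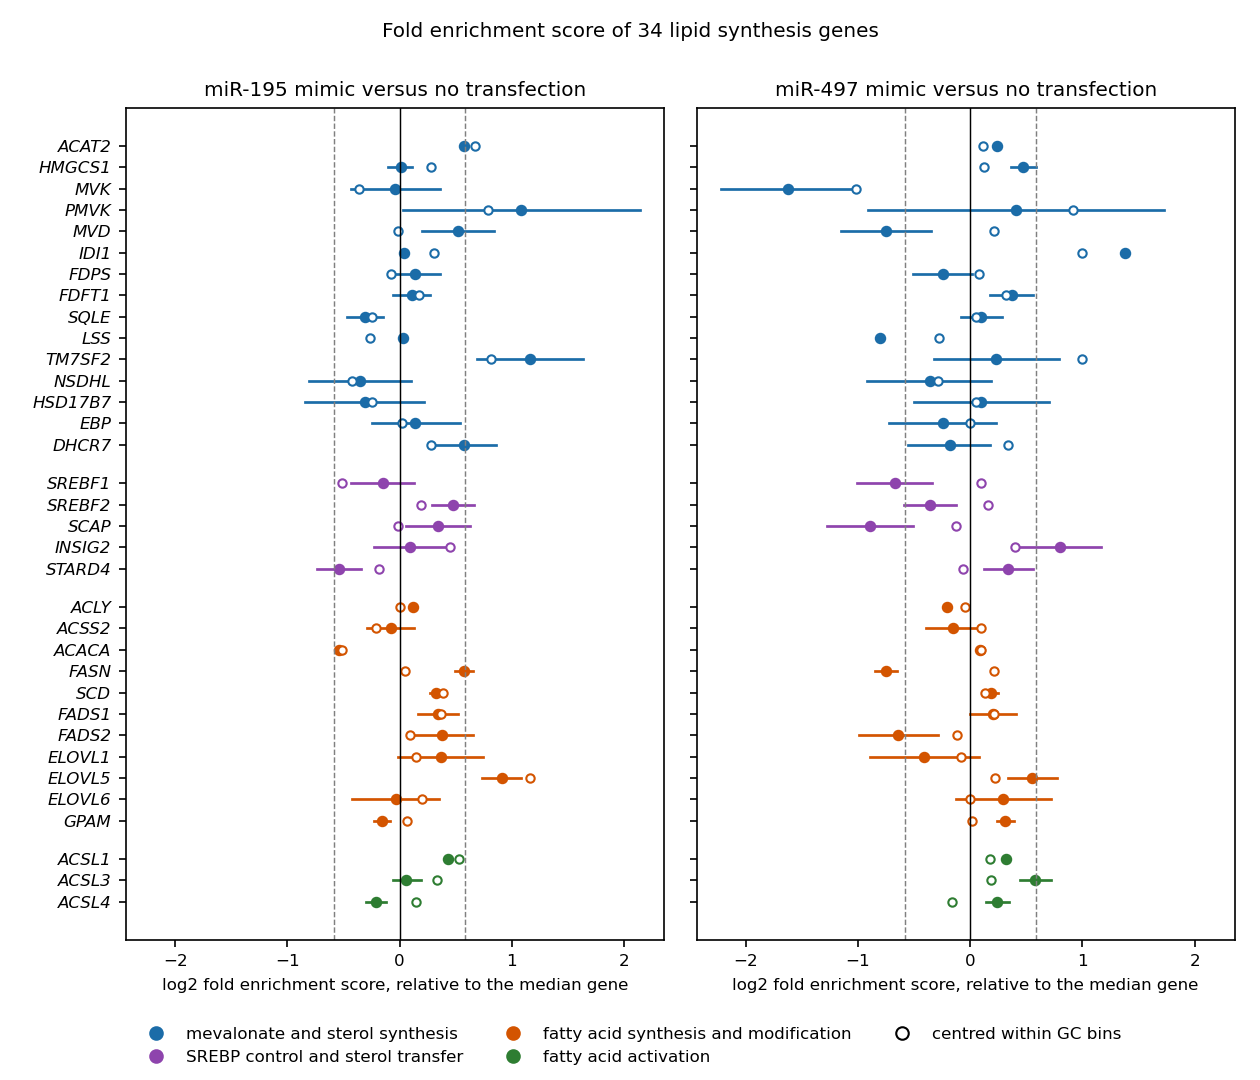
Log2 fold enrichment score relative to the median gene for 34 genes by role, with *miR-195* on the left and *miR-497* on the right. Filled points are the scores with 95% counting intervals where reads were inferred, open points the scores centred within GC bins, and dashed lines mark 1.5-fold; with *miR-497* the low scores of *FASN*, *MVD* and *SREBF1* move to 0.21, 0.21 and 0.10, while *MVK* stays low at -1.02.

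The seed match printed above was about as frequent among these genes as over all genes. TGCTGCT stood in a 3′UTR of 10 of the 34 genes (29.4%), against 29% of 10165 genes with an annotated 3′UTR. The longer word TGCTGCTA stood in 3 of 34 (8.82%, against 5.88%), and the core GCTGCT, which lies within both, in 22 of 34 (64.7%, against 51.0%). Members with TGCTGCT had a median log2 ratio in total RNA of 0.29 (*miR-195*) and 0.34 (*miR-497*), and members without it 0.46 and 0.49. Over all genes the medians were -0.08 and -0.07 with the word and 0.03 and 0.02 without it. The median log2 scores of members with and without the word were -0.03 and 0.23 with *miR-195*. With *miR-497* they were 0.27 and -0.04. Among all genes the median *miR-195* score was 0.09 for genes holding the word, beside -0.02 for genes lacking it. For *miR-497* these values were 0.04 (word present) and -0.03 (word absent). The *miR-497* score followed GC content (Spearman -0.72), so its medians do not separate the word from GC. Within GC bins, member scores for *miR-497* ranged from -1.02 (*MVK*) to 0.32 (*FDFT1*) where the word was present. Where it was absent they ranged from -0.29 (*NSDHL*) to 1.0 (*IDI1*, *TM7SF2*). In total RNA the 3 genes with TGCTGCTA were at 1.49-fold and 1.15-fold (*ACSL3*), 1.19-fold and 0.920-fold (*ACSL4*), and 1.26-fold and 1.31-fold (*ELOVL6*). No median over all genes was taken for this longer word, so no effect of it is read from these values. Of the other genes whose sites are printed, *MVK* and *FASN* were among the low scores with *miR-497* (0.325-fold and 0.594-fold). Within GC bins their log2 scores were -1.02 and 0.21. Of the 10 genes with TGCTGCT, 7 had a *miR-497* score above the median gene, against 1575 of 2952 among all genes with the word. For the *miR-195* score these counts were 4 of 10, against 1662 of 2952.

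Promoters, taken from RefSeq on GRCh38.p14 as 250 bases before to 50 after the start, were read because SREBP is a known regulator of many of these genes. A sequence was matched for 33 of the 37 genes. The sterol regulatory element TCACCCCAC, searched on both strands, was found in 1 of 33 (3.03%), against 0.425% of 27305 promoters. That gene was *SREBF2*, where the element is centred at -129 bases from the start. The looser word TCACNCCAC, where N is any base, was found only in the same gene (3.03%, against 1.15%). Other forms of the element were not searched, so a promoter without a match is not read as lacking SREBP control. The 27305 promoters, also used for the boxes below, were not limited to genes that passed the filter. The stretch printed, chr22:41832962-41832990, holds the element in capitals and 10 bases on either side.
SREBF2: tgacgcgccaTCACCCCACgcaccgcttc
The E-box CACGTG, which SREBP can also bind, was found in 4 of 33 (12.1%, against 7.43%), namely *ELOVL5*, *INSIG1*, *LSS* and *SCAP*. The CCAAT box, bound by the SREBP partner NF-Y and searched as CCAAT on both strands, was found in 20 of 33 (60.6%, against 35.7%). *MVD*, *MVK*, *LSS*, *DHCR7*, *HMGCS1* and *ACSS2* were among the 20, as were *ACLY*, *HSD17B7*, *NSDHL*, *STARD4* and *TM7SF2*. These were called higher in total RNA with at least 1 mimic. The rest of the 20 were not: *ACSL3*, *EBP*, *ELOVL1*, *ELOVL5*, *FDPS*, *GPAM*, *SCD* and *SREBF2*, and *INSIG1*, which had no ratio. *FADS2*, *FASN* and *SREBF1*, also called higher, were not among the 20. The genes without a matched promoter sequence are not identified here, so this is not read as lack of the box. Whether the box goes with the ratios was not tested.

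Genes of neighbouring pathways were read from lists, for comparison. Of 34 further genes of sterol and lipid synthesis and their control, 30 passed the filter. In total RNA with *miR-195*, 7 (23.3%, against 6.3% of all genes) were called higher and 1 (3.33%, against 6.26%) lower. With *miR-497* 5 (16.7%, against 9.9%) were called higher and 0 lower, against 3.92%. The median log2 ratios were 0.22 and 0.06. The furthest from 0 with *miR-195* were *PNPLA3*, a lipid droplet acyltransferase and lipase (1.02), *SC4MOL*, the sterol methyl oxidase (0.82), and *LPIN1*, a phosphatidate phosphatase (0.74). With *miR-497* they were *PNPLA3* (1.05), the oxysterol receptor *NR1H2* (1.01) and the sterol acyltransferase *SOAT2* (0.85). *PNPLA3* was at 5.43 RPKM in NT, 11 (*miR-195*) and 11.6 (*miR-497*). Fatty acid oxidation is the opposing route. Of its 23 genes that passed the filter, 0 were called in total RNA with *miR-195* (median 0.05), where *CPT2* (0.46), *ACAA1* (0.42) and *ETFB* (0.38) lay furthest from 0. With *miR-497* 2 of 23 (8.70%, against the 9.9% of all genes) were called higher and 0 lower (median -0.01), the dehydrogenase *ACADS* (0.70) and the electron carrier *ETFB* (0.67), followed by *DCI* (0.56). Centred within GC bins, 0 of the 23 were called with either mimic. Of the 9 hepatocyte markers 0 were called in total RNA, and the furthest from 0 were *APOC3* (-0.55), *SERPINA1* (0.26) and *APOA1* (0.22) with *miR-195*, and *APOA1* (0.55), *APOC3* (0.41) and *HNF4A* (0.26) with *miR-497*.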

How the data were processed

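Hep G2 total RNA and Ago2-IP RNA were sequenced by the authors as 36-base single reads, mapped to hg19 with ELANDv2 and converted with CASAVA 1.7. They deposited 1 RPKM value per gene and library. Gene annotation, read filters, strand use and the libraries with poly-A selection are not given in the sources used here. All 6 value columns were matched to their labels, and 0 were left over.

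Lines of a repeated symbol were averaged. Genes with RPKM above 0 in all 6 libraries and a mean of at least 1 were tested (10777). Log2 ratios had no pseudocount and were centred on the median gene. Calls needed 1.5-fold. Reads were inferred where RPKM values were whole multiples of a library's step and the implied length was 0.4 to 2.5 times that of the annotated transcript. The 95% counting intervals come from these reads and cover counting error only. 3′UTRs, length and GC content came from GENCODE release 44 on GRCh37. Python 3.11.15 with pandas 2.3.3 and numpy 2.4.6 was used, and the steps were tested on simulated data.

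The genes and lists were chosen with earlier results of these data known. Values in all libraries were written out for *FASN*, the SREBP genes, *SCAP*, *INSIG1*, *INSIG2*, genes past 1.5-fold in total RNA and genes past 2-fold in a score. Of the other lists (further pathway genes, fatty acid oxidation, hepatocyte markers), the 3 genes furthest from 0 in total RNA with each mimic were named. Of markers of other cell types, 1 passed the filter. Not all of the further pathway genes are reported by name here. Alternatives were 2 pseudocounts, 2 other filters, no centring, upper quartile scaling, shorter or longer target words and, added later, centring within GC bins. No replicate could be left out, since each condition had 1 library per fraction.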

Additional observations from a re-analysis of the deposited data

How the results depend on the processing

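The counts of genes called higher in total RNA (11 with *miR-195*, 10 with *miR-497*) stayed within 1.5-fold under every alternative run, and in total RNA only the *miR-497* median moved, from 0.45 to 0.34 within GC bins. The share of all genes beside these counts did move. With *miR-195* it ranged from 3.53% (1 RPKM added) to 12.9% (no minimum on the mean). With *miR-497* it ranged from 2.25% (GC bins) to 14.2% (no minimum on the mean). With no minimum, 28.6% of the lipid synthesis genes were called higher with each mimic. The other results moved with the centring, the pseudocount and the filter. Without centring, the count called higher was 28 (*miR-195*) and 3 (*miR-497*) in Ago2-IP (44.6% and 2.69% of all genes), 18 and 1 in the scores (43.4% and 3.18%), and 0 for Ago2-IP against total RNA in NT (3.52%), with 2 called lower in Ago2-IP with *miR-497* (18.1%) and 33 in the NT comparison (87.4%). The medians were then 1.09 for Ago2-IP and 0.61 for the score with *miR-195*, and -2.64 in NT. The fall or rise of the median gene itself enters these values. With a pseudocount of 1 RPKM, 7 were called higher and 0 lower in Ago2-IP with *miR-497* (1.87% and 2.49%). With no minimum on the mean, 6 scores were high with *miR-195* (18.6%). With a mean of at least 5 RPKM, 4 genes were higher in NT Ago2-IP (29% of all genes) and the median there was -0.48. Within GC bins, 1 score was low (7.58%) and 0 genes lower in Ago2-IP (6.21%) with *miR-497*. The target word count was 10 for TGCTGCT, 22 for GCTGCT and 3 for TGCTGCTA. For the named calls, 33 pairs of a gene and a comparison from 19 genes, 230 values were recomputed, of which 213 kept their direction and side of the threshold, 14 kept only their direction (11 of these within GC bins), and 3 turned within GC bins: the *miR-497* scores of *MVD* (0.21), *FASN* (0.21) and *SREBF1* (0.10). No paired analysis was possible because each condition had 1 library per fraction and no test was made. Ago2-IP depth limits the low genes, such as *PMVK* with 9 to 31 reads.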
